A study of Mus musculus with 3 samples.

Results

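The 67 genes described here are the clustered histone genes of the mouse, taken from the 31053 genes of the deposited feature list as every gene whose symbol begins with Hist1h, Hist2h, Hist3h or Hist4. They encode linker histone H1 and the core histones H2A, H2B, H3 and H4. On build GRCm38, 54 lie on chromosome 13 between 21715763 and 23934851, 10 on chromosome 3 between 96219865 and 96270132, 2 on chromosome 11 and 1 on chromosome 6. All but 5 have a single exon.

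The data were 3 single-cell libraries of untreated mouse ear skin made with a 10x Genomics 3′ kit, and each library was 1 pool of mice. The young WT library came from 8 C57BL/6J mice of 4 weeks (5 male, 3 female), the adult WT library from 10 C57BL/6J mice of 8 weeks (6 male, 4 female), and the adult Lang-DTA library from 10 Langerin-DTA mice of 8 weeks (4 male, 6 female). Langerin-DTA mice carry diphtheria toxin A under human Langerin regulatory sequence, which removes Langerhans cells from the epidermis, and the labels call the WT mice of experiments with that strain littermates. In every library, lymphatic endothelial cells (CD45-CD31+PDPN+), blood endothelial cells (CD45-CD31+PDPN-), CD45+ cells and CD45-CD31- cells had been sorted and mixed in equal parts, so the makeup of a library reflects the sort. With 1 library per condition there was no replicate and no test was possible: every interval below is a 95% interval for counting error only, and differences between libraries also hold differences between pools, sorts and runs.

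Most clustered histone genes are expressed while a cell copies its DNA, when new chromatin has to be packed. Their mRNAs usually lack a poly(A) tail and end just after a short stem-loop bound by the protein SLBP, and they are broken down when DNA synthesis stops. Some members can also yield longer, polyadenylated mRNAs, and cells that have left the cycle use these together with replacement histones encoded outside the clusters. The libraries were primed on poly(A), so the counts cover the fraction of each member's RNA that was captured, and the order of members by count is an order of captured molecules.

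A stem-loop of 6 paired bases and a 4-base loop was found in an annotated transcript of 43 of the 67 members (64.2%), against 0.162% of all protein-coding transcripts of GENCODE release M21. Its forms are shown because they are the feature that sets these mRNAs apart from others, with the loop in capitals and the number of members in the name.
Stem-loop in 25 members: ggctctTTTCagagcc
Stem-loop in 7 members, all H4: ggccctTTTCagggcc
Stem-loop in 6 members: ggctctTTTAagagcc
Stem-loop in 2 members, Hist2h4 and Hist1h4i: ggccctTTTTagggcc
Stem-loop in 2 members, Hist1h4j and Hist1h4b: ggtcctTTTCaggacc
Stem-loop in Hist2h2ac: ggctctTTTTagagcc
The transcript ended within 100 bases after the loop in 21 of the 43 and ran on further in 22. The first form was read in H1, H2A, H2B and H3 genes alike. Conversely, the poly(A) signal letters AATAAA stood within the last 50 bases of 14 members (20.9%), against 40.5% of protein-coding transcripts.

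Promoters shared motifs by family. Of the 62 members with a RefSeq window (GRCm38.p6, 250 bases before to 50 after the start, searched on both strands), CCAAT was present in 53 (85.5%, against 37.4% of 32851 windows) and TATAAA in 35 (56.5% against 13.6%). CCAAT was in every matched H1, H2A, H2B and H3 window but in only 3 of 12 H4 windows. The octamer ATTTGCAT was in 7 of 18 H2A and 7 of 16 H2B windows and in none of the H1, H3 or H4 windows, against 1.74% of all windows. The letters AAACACA were in 5 of 6 H1 windows, against 7.18% of all. The 150 bases upstream of 3 linker genes and 1 H2B gene are shown because the results below turn on the linker genes and the H2B gene carries the octamer; capitals mark these motifs on either strand.
Hist1h1b, chr13:21780626-21780775, minus strand: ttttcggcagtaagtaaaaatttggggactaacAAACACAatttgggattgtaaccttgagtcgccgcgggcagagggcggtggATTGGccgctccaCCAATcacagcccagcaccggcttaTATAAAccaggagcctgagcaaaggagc
Hist1h1e, chr13:23622559-23622708, minus strand: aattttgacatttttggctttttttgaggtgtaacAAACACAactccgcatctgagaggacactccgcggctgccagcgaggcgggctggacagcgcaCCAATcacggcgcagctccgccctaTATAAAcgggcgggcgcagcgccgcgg
Hist1h1c, chr13:23738657-23738806, plus strand: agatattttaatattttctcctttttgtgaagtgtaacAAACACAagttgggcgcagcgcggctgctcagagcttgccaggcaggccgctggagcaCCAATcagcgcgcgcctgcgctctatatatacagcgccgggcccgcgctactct
Hist1h2bb, chr13:23746584-23746733, plus strand: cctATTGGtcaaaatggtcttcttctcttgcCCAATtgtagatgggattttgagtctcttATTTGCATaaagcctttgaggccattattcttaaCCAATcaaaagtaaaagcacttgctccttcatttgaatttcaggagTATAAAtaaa
All 3 linker windows held AAACACA and CCAAT in the same order, and the letters TATAAA were in those of Hist1h1b and Hist1h1e and not in the printed window of Hist1h1c. A match is a description of letters and not of a bound site.

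Cells were placed in 4 classes by raw unique molecular identifiers (UMIs, 1 per captured RNA molecule): at least 2 UMIs of Prox1, the lymphatic transcription factor; at least 0.3% of UMIs from Krt5 and Krt14, the basal keratins; at least 1 UMI of Trdv4, a T cell receptor segment of skin gamma delta T cells; or at least 2 UMIs of Cd207, which encodes Langerin. A cell counted as cycling with at least 3 UMIs of Mki67 plus Top2a, both proliferation genes, and as non-cycling with 0. Non-cycling names that count and not a measured state, so cells in the cycle may be among them. The libraries held 12864, 13600 and 13540 barcodes and 137441575, 128595813 and 124590777 UMIs, of which 7250, 6026 and 6364 cells fell in 1 class (young WT, adult WT and the adult Lang-DTA library in that order). Marker lists were checked in each gate: the lymphatic marker list summed to 6498 to 15721 counts per 1000000 UMIs (CPM) in Prox1-gated units and at most 61.5 in the others, the keratinocyte list to 18581 to 25518 CPM in keratin-gated units, the gamma delta T cell list to 7462 to 12987 CPM in Trdv4-gated units and the Langerhans list to 39053 to 42708 CPM in Cd207-gated units. Cycling Trdv4-gated cells also held Langerhans list genes, at 1588 CPM in young WT, 3198 in adult WT and 9476 in adult Lang-DTA, against 318, 341 and 784 CPM in the non-cycling ones. In adult Lang-DTA that was above the gamma delta T cell list (7462 CPM), beside 1500 CPM of the keratinocyte list. Cycling Prox1-gated cells held Langerhans list genes too, at 1484 CPM in young WT and 496 in adult Lang-DTA, against 216 and 142 CPM in the non-cycling ones. The part of these genes in the results of cycling Trdv4-gated and Prox1-gated cells was not tested. Any 2 libraries shared 39 to 50 barcodes (0.288% to 0.389%).

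A pair of cell groups was too small to use: only 3 of 1508 Prox1-gated cells of adult WT were cycling, and only 6 Cd207-gated cells were present in adult Lang-DTA. Cycling cells made up 2.25% of Prox1-gated cells in young WT (89 of 3952) and 6.47% in adult Lang-DTA (148 of 2288). In the keratin gate the shares were 14.9%, 12% and 8.72% in young WT, adult WT and the adult Lang-DTA library, and in the Trdv4 gate 15.8%, 4.79% and 4.90%. In the Cd207 gate they were 26.7% in young WT and 10.8% in adult WT. This left 10 class and library units with at least 20 cycling cells. Simulated doublets were called in 5.15% to 5.44% of cells, and in 7.23%, 15.8% and 9.98% of the cycling gated cells of the 3 libraries.

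Clustered histone RNA was 6.76 to 25.6 times higher in cycling than in non-cycling cells of the 10 units. Summed over the 67 members, it was 5415 against 432 CPM in Prox1-gated cells of young WT and 6823 against 1009 CPM in those of adult Lang-DTA. In the keratin gate the sums were 4440 against 260 CPM in young WT, 3451 against 153 in adult WT and 4788 against 187 in adult Lang-DTA. In the Trdv4 gate they were 4700 against 248, 2853 against 196 and 2730 against 236 CPM, and in the Cd207 gate 1890 against 156 in young WT and 1429 against 114 in adult WT. The ratio was lowest in Prox1-gated cells of adult Lang-DTA, at 6.76 (6.62 to 6.91), where the non-cycling sum was the highest of all, and highest in keratin-gated cells of adult Lang-DTA, at 25.6 (24.8 to 26.5). Cycling cells were also deeper, with a median of 12991 against 7780 UMIs in Prox1-gated cells of young WT. Per cell that was 79.2 against 3.66 histone UMIs.

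Linker and H2A genes gave most of the histone RNA of cycling cells. Linker H1 made up 27.1% to 37.8% of the members' UMIs over the 10 units, H2A 27.1% to 37.2%, H4 12.2% to 17.7%, H3 10.2% to 16% and H2B 6.79% to 10.9%. Non-cycling cells had another makeup, and it differed by class. H1 was 51.7% and 53.3% of the members' UMIs in non-cycling Prox1-gated and keratin-gated cells of young WT but 31.8% and 26.0% in Trdv4-gated and Cd207-gated ones. H3 was at most 6.21% of the non-cycling UMIs in any unit, and H2B reached 29.8% and 28.3% in Cd207-gated cells of young and adult WT.

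The members were divided with young WT alone. A member was measured in a class if cycling and non-cycling cells together gave at least 20 UMIs. It was called replication type if its CPM in cycling cells was at least 4 times that in non-cycling cells in every class where it was measured, and detected in non-cycling cells if it missed that ratio in at least 1 class with at least 10 CPM in the non-cycling cells there. This gave 41 members of replication type, 3 detected in non-cycling cells (Hist1h1c, Hist1h2bc and Hist3h2a), 8 in neither group and 15 too low to measure. The division is a description, since these levels made it. Just inside the ratio stood Hist1h4i, at 7.64 against 1.49 CPM in Cd207-gated cells (5.13), and just outside it Hist2h2ab (3.41) and Hist1h4a (3.13) in Trdv4-gated cells, neither of which reached 10 CPM in non-cycling cells. Of the 245029 member UMIs in all cells kept, 186440 came from replication-type members, 47426 from the 3 detected in non-cycling cells, 9769 from members in neither group and 1394 from low members.

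The same rule applied to the other libraries kept most members where they were. All 41 replication-type members of young WT were again replication type in adult WT, among 47 there, and 38 were in adult Lang-DTA, among 45. Hist1h2bc and Hist3h2a were detected in non-cycling cells in all 3 libraries. Hist1h1c joined them in young WT and adult Lang-DTA but met the replication-type ratio in the classes of adult WT where both states could be compared, which did not include the Prox1 gate. Adult Lang-DTA added Hist2h2aa1, Hist1h4i, Hist1h4d, Hist1h2ac and Hist1h4a to the members detected in non-cycling cells, for 8 in all.

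Of the members with at least 20 UMIs, most were at least 2-fold higher in cycling cells, and since a member could be measured through its cycling cells alone these counts carry no weight of their own. In the Prox1 gate, 41 of 45 were higher in young WT, against 11.6% of all genes tested in that comparison, and 50 of 56 in adult Lang-DTA, against 12.1%. In the keratin gate, 47 of 49 were higher in young WT (7.01% of all genes), 51 of 52 in adult WT (8.65%) and 51 of 53 in adult Lang-DTA (7.19%). In the Trdv4 gate the counts were 41 of 45 (7.62%), 26 of 31 (9.96%) and 23 of 28 (10.5%), and in the Cd207 gate 35 of 37 in young WT (5.62%) and 17 of 19 in adult WT (4.1%). Members with at least 20 UMIs in the non-cycling cells themselves were fewer, and of these 27 of 31, 18 of 20, 17 of 21 and 4 of 6 were higher in the Prox1, keratin, Trdv4 and Cd207 gates of young WT. No share of all genes under that limit is given for these gates. The median log2 ratio over the measured members of young WT was 4.79, 4.85, 4.60 and 3.88 in those gates, where the medians over all genes were 0.03, -0.03, -0.04 and 0.01.

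The 6 linker H1 genes, whose proteins bind the DNA between nucleosomes, did not all fall in the same group. Hist1h1a, Hist1h1b, Hist1h1d and Hist1h1e were replication type, Hist1h1c was detected in non-cycling cells and Hist1h1t was too low to measure. Hist1h1b was the member with the most RNA in cycling cells, at a mean of 505 CPM over the 10 units. In young WT it stood at 681 against 1.60 CPM in Prox1-gated cells, 688 against 10.8 in keratin-gated, 562 against 0.717 in Trdv4-gated and 213 against 0.596 in Cd207-gated cells, with only 6 and 2 non-cycling UMIs behind the last 2 values. The ratio was 424 (319 to 576) in the Prox1 gate and 63.6 (53.5 to 76.1) in the keratin gate. Non-cycling keratin-gated cells thus held more Hist1h1b than non-cycling cells of the other 3 gates, and this also held in adult WT (7.99 against 0.584 to 1.46 CPM), while in adult Lang-DTA the Prox1 gate came close (7.51 against 8.28 CPM in the keratin gate).

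Hist1h1a and Hist1h1d had the same form at lower levels. Hist1h1a stood at 77.6 against 0.866, 129 against 1.11, 119 against 6.09 and 44.1 against 1.19 CPM in the Prox1, keratin, Trdv4 and Cd207 gates of young WT. Hist1h1d stood at 132 against 2.63, 109 against 6.29, 140 against 2.75 and 58.0 against 2.68 CPM. The non-cycling level was highest in Trdv4-gated cells for Hist1h1a and in keratin-gated cells for Hist1h1d. The testis gene Hist1h1t had 17 UMIs in all 3 libraries together.

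Hist1h1e (chromosome 13, 23620629 to 23622558) and Hist1h1c (23738808 to 23740367) were the linker genes with the most RNA in non-cycling cells. Hist1h1e met the replication-type ratio but stood at 105, 71.6, 42.4 and 17.0 CPM in non-cycling cells of the Prox1, keratin, Trdv4 and Cd207 gates of young WT, against 600, 542, 516 and 178 CPM in cycling cells. Its ratio was 5.74 (5.30 to 6.20) in the Prox1 gate and 12.2 (10.8 to 13.7) in the Trdv4 gate. Hist1h1c stood at 113, 48.9, 27.0 and 19.1 CPM in non-cycling cells and 294, 208, 171 and 98.9 CPM in cycling cells, with ratios of 2.59 (2.32 to 2.88), 4.25 (3.83 to 4.73), 6.33 (5.42 to 7.42) and 5.19 (3.95 to 6.92). In non-cycling cells both genes had the same order of classes, Prox1 gate first and Cd207 gate last. For each gene the interval of the ratio in the Prox1 gate lay below that in the Trdv4 gate. The last 496 annotated bases of Hist1h1e overlap the annotated start of Hist1h2be on the same strand, so counts could move between these members.

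**Figure D1:**
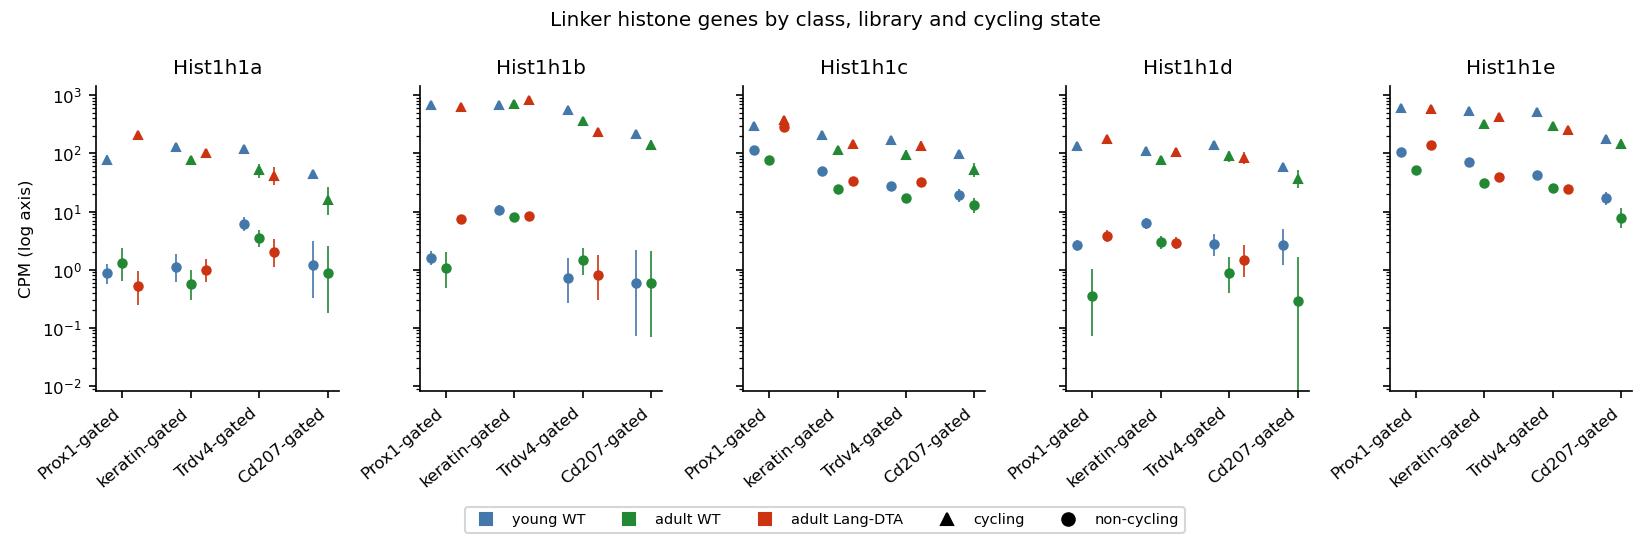
CPM (log scale) of the linker H1 genes in cycling and non-cycling cells of each gated class, with one colour per library and bars for the 95% interval of counting error. Hist1h1b spans 688 to 10.8 CPM between cycling and non-cycling keratin-gated cells of young WT, whereas Hist1h1c in Prox1-gated cells of young WT goes only from 294 to 113 CPM.

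Among H2A genes, Hist1h2ap (mean 448 CPM over cycling units) and Hist1h2ae (305 CPM) led, and both were low in non-cycling cells of the WT libraries. Hist1h2ap stood at 725 against 3.75, 450 against 3.10, 469 against 4.18 and 179 against 0.893 CPM in the Prox1, keratin, Trdv4 and Cd207 gates of young WT, with a ratio of 193 (159 to 236) in the first. Hist2h2ac, from the chromosome 3 cluster, kept more, at 183 against 5.94 and 150 against 15.3 CPM in the Prox1 and Trdv4 gates. Hist3h2a, on chromosome 11, did not follow the cycle. It stood at 6.15 against 8.38 (ratio 0.734, 0.314 to 1.47), 9.50 against 9.07 (1.05, 0.708 to 1.52), 7.03 against 15.8 (0.446, 0.273 to 0.698) and 9.03 against 11 CPM (0.819, 0.476 to 1.39) in the 4 gates. Only in the Trdv4 gate did the interval lie below 1. Hist3h2a lies wholly within Trim17 on the same strand (2146 bases), so its reads cannot be told from those of Trim17 where their exons overlap.

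Hist1h2bc was the H2B gene of non-cycling cells. It stood at 92.2 against 49.7 CPM in the Prox1 gate of young WT (1.85, 1.53 to 2.23), 77.9 against 18.5 in the keratin gate (4.20, 3.54 to 5.00), 29.7 against 11.3 in the Trdv4 gate (2.61, 1.95 to 3.51) and 52.1 against 38.1 in the Cd207 gate (1.37, 1.07 to 1.74). In non-cycling Cd207-gated cells it was above Hist1h1c (19.1 CPM) and Hist1h1e (17.0 CPM), the reverse of the other 3 gates. Its annotated start is 250 bases from that of the H2A gene Hist1h2ac, which is read in the opposite direction. Over the 10 units the pair averaged 31.5 (Hist1h2bc) against 2.62 CPM (Hist1h2ac) in non-cycling cells and 51.3 against 23.2 CPM in cycling cells. In cycling cells other head-to-head pairs ranged from unequal to near equal: Hist2h2ac averaged 116 CPM and Hist2h2be, 238 bases away, 1.93 CPM; Hist1h2ap averaged 448 CPM and Hist1h2br, 235 bases away, 22.4 CPM; Hist1h2ak averaged 16.6 CPM and Hist1h2bn, 295 bases away, 18.7 CPM.

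H3 genes gave little RNA in non-cycling cells. Hist1h3c, which led the family with a mean of 279 cycling CPM, stood at 356 against 0.257, 300 against 0.796, 339 against 0.717 and 169 against 0.298 CPM in the Prox1, keratin, Trdv4 and Cd207 gates of young WT. The non-cycling values rest on 8, 10, 6 and 1 UMIs, and the Prox1 ratio had an interval of 698 to 3229.

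H4 genes lay between. Hist1h4d, with a mean of 352 cycling CPM, stood at 409 against 59.7, 372 against 26.0, 537 against 37.7 and 164 against 19.7 CPM in the 4 gates of young WT, so that it was after Hist1h1c and Hist1h1e the third most abundant member in non-cycling Prox1-gated cells. Hist1h4h (103 against 12.4 CPM) and Hist1h4c (53.0 against 10.3 CPM) also stood above 10 CPM in non-cycling cells of the Prox1 gate. In non-cycling cells of the keratin, Trdv4 and Cd207 gates Hist1h4h stood at 6.29, 5.85 and 5.06 CPM. Hist1h4c stood at 7.96, 5.73 and 6.55 CPM there. Hist4h4, the single member on chromosome 6, stood at 5.38 against 4.56 CPM in the Prox1 gate (1.18, 0.466 to 2.50) and 6.57 against 1.51 CPM in the keratin gate (4.35, 2.33 to 8.27).

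The groups differed in annotated features that the division did not use, but 1 of them had only 3 members. Features were read from the annotated transcript, which was as short as 312 bases (Hist1h4k), so a loop outside it would not be found. A stem-loop was found in 29 of 41 replication-type members and in 2 of the 3 detected in non-cycling cells, but 16 of those 29 transcripts ended within 100 bases after the loop and neither of the 2 did. AATAAA stood in the last 50 bases of 2 of 41 replication-type members, 2 of 3 members detected in non-cycling cells, 6 of 8 in neither group and 4 of 15 low members. It was in 0 of the 6 replication-type members with at least 10 CPM in non-cycling cells of young WT, so it did not follow that level. The median annotated length was 524 bases for replication-type members and 1560 bases for those detected in non-cycling cells. Replication-type members also shared more of their sequence with other members: a median of 56.3% of their 31-base words was found in another member, against 11.4%. Reads from such near-identical copies may be assigned to none or to either, so single values of the smaller replication-type members are uncertain.

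The order of members was stable across units in cycling cells. Over 52 members, Spearman's rho between pairs of the 10 units was 0.844 to 0.980 in cycling cells and 0.592 to 0.959 in non-cycling cells, over 45 pairs that partly share a library, given as a description.

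Within the cycling cells, summed histone RNA was higher in cells leaning to a mitosis (M) gene list than in those leaning to an S phase (S) gene list in most units. Leaning names the list with more UMIs and is not a measured phase. A cell leaned to S or to M if it had at least 3 UMIs of the 20-gene S list or 16-gene M list and more of that list than of the other. The members summed to 1634 CPM in 25 S-leaning and 7402 CPM in 60 M-leaning Prox1-gated cells of young WT. The keratin gate gave 3134 against 5860, 1248 against 5096 and 2903 against 6182 CPM in young WT, adult WT and the adult Lang-DTA library, the Trdv4 gate 4282 against 5436, 2489 against 4726 and 2001 against 5209, and the Cd207 gate 575 against 7340 in young WT and 511 against 4352 in adult WT. Prox1-gated cells of adult Lang-DTA had the opposite order, with 8188 CPM in 59 S-leaning and 5985 CPM in 83 M-leaning cells.

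Few cells carried much of these sums. In M-leaning Prox1-gated cells of young WT the median cell had 569 CPM of replication-type RNA and the 90th percentile 19625 CPM. In the S-leaning ones these values were 407 and 4474 CPM, so the medians lay closer than the sums. Medians of S-leaning and M-leaning keratin-gated cells of adult WT lay further apart, at 161 and 2121 CPM. The counting intervals do not cover this spread between cells. Mki67 and Top2a, which define the cycling cells here, are known to peak late in the cycle, and the part of that choice in these levels was not tested.

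**Figure D2:**
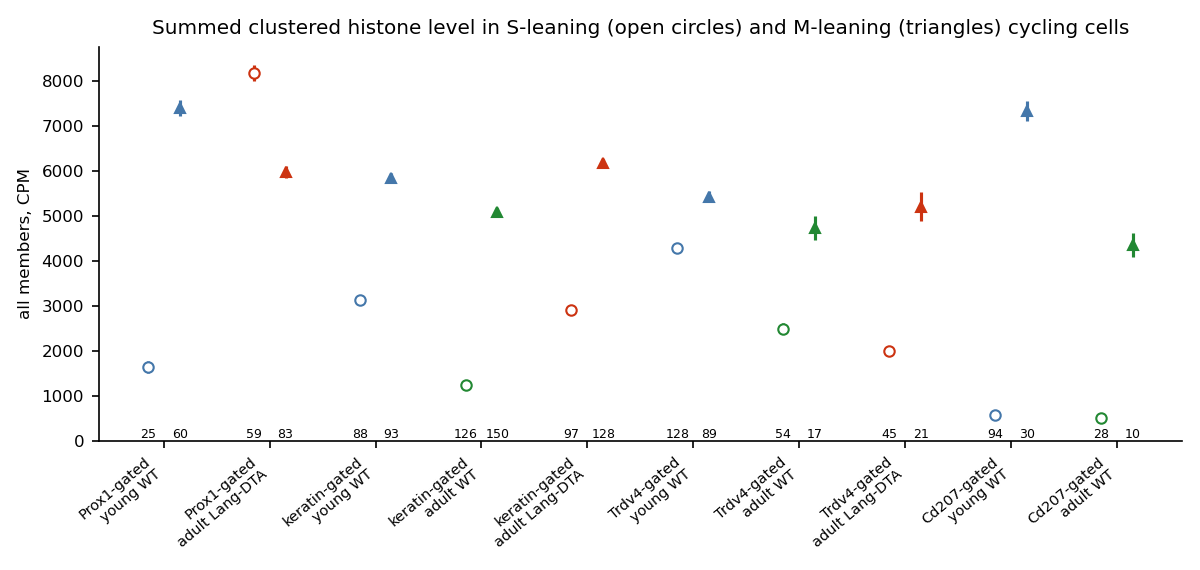
Summed CPM of the clustered histone genes in S-leaning (open circles) and M-leaning (triangles) cycling cells of each class and library, with 95% counting intervals and the number of cells at the foot. Triangles lie above circles in 9 of the 10 units; in Prox1-gated cells of adult Lang-DTA the S-leaning cells are higher, at 8188 against 5985 CPM.

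Age was compared between adult WT and young WT, and clustered histone RNA was lower in adult WT in non-cycling cells of all 4 gates. The sum was 288 against 432 CPM in Prox1-gated cells (ratio 0.667, 0.639 to 0.697), 153 against 260 in keratin-gated (0.589, 0.561 to 0.617), 196 against 248 in Trdv4-gated (0.789, 0.742 to 0.839) and 114 against 156 in Cd207-gated cells. Median depth was lower in adult WT too, for example 5025 against 7780 UMIs in Prox1-gated non-cycling cells, and its part in the result was not tested.

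Single members past 2-fold were nearly all on the lower side. In the Prox1 gate, 7 of 32 measured members were at least 2-fold lower in adult WT, against 5.38% of all genes, and 0 were higher, against 4.09%; the median log2 ratio was -0.50 for members and -0.10 for all genes. Of these 7 only Hist1h1e had at least 20 UMIs in adult WT, where there were 1471 cells against 3675 in young WT, so the others were measured through the library in which they were high. In the keratin gate 9 of 28 were lower (3.07% of all genes) and 0 higher (3.2%), with a median of -0.62; in male-called cells alone 8 members passed 2-fold and in female-called cells 1. In the Trdv4 gate 3 of 26 were lower (3.22%) and 1 higher (3.48%), and in the Cd207 gate 3 of 10 were lower (3.48%) and 1 higher (3.62%). In the keratin, Trdv4 and Cd207 gates too, members low in adult WT could reach 20 UMIs through young WT, where they were high. Hist1h1d and Hist1h3e were at least 2-fold lower in the 3 gates other than Cd207, where they were under 20 UMIs: Hist1h1d went from 2.63 to 0.353 CPM in the Prox1 gate (82 against 3 UMIs, ratio 0.134, 0.0271 to 0.407), from 6.29 to 2.97 in the keratin gate and from 2.75 to 0.874 in the Trdv4 gate. Hist1h3e went from 4.94 to 1.65, 3.42 to 1.66 and 6.69 to 3.11 CPM in the same gates. The 2 members that were higher rested on few counts. Hist1h1b had 15 against 6 UMIs in Trdv4-gated cells (2.03, 0.745 to 6.39), a direction that turned, to a log2 ratio of -0.50, when single-cell CPM were averaged, and Hist1h2be stood at 4.38 against 2.08 CPM in Cd207-gated cells.

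Hist1h1e was lower in adult WT in each class of non-cycling cells, at ratios from 0.435 (keratin gate) to 0.589 (Trdv4 gate) whose intervals did not overlap. It stood at 52.2 against 105 CPM in the Prox1 gate (ratio 0.499, 0.451 to 0.551), 31.1 against 71.6 in the keratin gate (0.435, 0.394 to 0.480), 25.0 against 42.4 in the Trdv4 gate (0.589, 0.499 to 0.693) and 7.89 against 17.0 in the Cd207 gate (0.465, 0.283 to 0.747). Of 10 members measured in all 4 gates it was the only one at least 1.5-fold lower in each, a limit chosen after its values were seen and met by 0.277% of 9739 genes. Hist1h1c, Hist1h4d and Hist2h2ac were lower in all 4 gates without passing that limit in each, as were 28.5% of genes. Hist1h1c stood at 77.2 against 113, 24.3 against 48.9, 16.8 against 27.0 and 12.9 against 19.1 CPM. Hist1h2bc did not share the direction: it was lower in 3 gates but stood at 16.8 against 11.3 CPM in Trdv4-gated cells (log2 ratio 0.57, 0.20 to 0.94).

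The age difference of Hist1h1e was larger in cells called male from their own RNA than in those called female. In non-cycling cells of young WT it stood at 118 in male-called and 93.9 CPM in female-called Prox1-gated cells, 82.7 and 54.5 in keratin-gated, 46.1 and 37.6 in Trdv4-gated and 22.2 and 9.02 in Cd207-gated cells. In adult WT it was 47.7 and 54.0, 29.7 and 33.4, 23.9 and 26.5, and 6.61 and 8.70 CPM. Male-called cells were the higher of the pair in every gate of young WT and the lower in every gate of adult WT, and the WT pools held at most 6 males and 4 females; this difference was not tested.

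In cycling cells the age comparison could be made in 3 gates. In the keratin gate 4 of 54 members were at least 2-fold lower in adult WT (2.73% of all genes) and 1 higher (4.3%). Hist1h2bc was one of the 4, at 32.8 against 77.9 CPM (0.422, 0.351 to 0.505), and its neighbour Hist1h2ac another, at 13.1 against 32.9 CPM (0.399, 0.298 to 0.530). In the Trdv4 gate 12 of 45 were lower (5.94%) and 2 higher (6.43%); Hist1h2ab stood at 85.8 against 229 CPM (0.374, 0.296 to 0.468) and Hist1h2bh at 3.99 against 25.7 CPM. In the Cd207 gate 8 of 38 were lower (7.69%) and 0 higher (2.93%), with Hist1h3b at 7.39 against 28.8 CPM (0.256, 0.100 to 0.552). Adult WT had fewer cycling cells in the Cd207 gate (47 against 158) and in the Trdv4 gate (81 against 225). Members low in adult WT could therefore be measured there through young WT, where they were high. In these cycling Trdv4-gated cells the gamma delta T cell list stood at 12104 CPM in young WT and 7662 in adult WT, and the Langerhans list at 1588 and 3198 CPM. M-leaning cells were 89 of 225 cycling Trdv4-gated cells in young WT and 17 of 81 in adult WT, and the part of either in the members' levels was not tested.

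Genotype was compared between adult Lang-DTA and adult WT, and of the gates compared the summed clustered histone RNA differed most in the Prox1 gate. In non-cycling Prox1-gated cells the members summed to 1009 CPM in adult Lang-DTA and 288 CPM in adult WT (ratio 3.50, 3.36 to 3.65), with young WT at 432 CPM. At least 2-fold higher in adult Lang-DTA were 28 of 37 measured members, against 13.1% of all genes, and 2 were lower, against 10%. The median log2 ratio was 1.90 for members and 0.04 for all genes. Of the 15 members measured in adult WT alone, 10 were higher and 1 lower, and no share of all genes under that limit is given beside them.

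Both groups of members took part. Hist1h1c stood at 113, 77.2 and 287 CPM in non-cycling Prox1-gated cells of young WT, adult WT and the adult Lang-DTA library (adult Lang-DTA over adult WT 3.72, 3.43 to 4.04). Hist1h2bc stood at 49.7, 32.9 and 112 CPM (3.41, 3.01 to 3.88) and Hist1h4d at 59.7, 42.5 and 194 CPM (4.56, 4.10 to 5.10). All 3 were thus higher in adult Lang-DTA than in either WT library. Hist1h1e stood at 105, 52.2 and 138 CPM (2.64, 2.39 to 2.93), with young WT between the adult libraries. Hist3h2a stood at 8.38, 7.07 and 10.8 CPM and did not pass 2-fold.

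The largest ratios belonged to members that were nearly absent from non-cycling WT cells. Hist1h4i stood at 1.51, 1.06 and 25.2 CPM in young WT, adult WT and the adult Lang-DTA library (23.8, 12.4 to 52.4) and Hist1h2ap at 3.75, 2.95 and 43.9 CPM (14.9, 10.0 to 23.2). Hist1h2ae stood at 4.40, 1.65 and 18.9 CPM (11.4, 6.73 to 21.1). Hist1h4m had 92 UMIs in adult Lang-DTA and 1 in adult WT, and Hist1h3i had 76 and 2. Of these 5 members only Hist1h2ap reached 20 UMIs in adult WT (25); the others, with 1 to 14 UMIs there, were measured through adult Lang-DTA, where they were high. Not all replication-type members followed: Hist1h1a stood at 0.866, 1.30 and 0.518 CPM (10 against 11 UMIs in the adult libraries, 0.40, 0.152 to 1.04). Hist1h3c did pass 2-fold, with a ratio of 10.6, but at low levels of 0.257, 0.118 and 1.24 CPM. Hist4h4 went the other way, at 4.56, 6.36 and 1.61 CPM (0.252, 0.157 to 0.40).

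**Figure D3:**
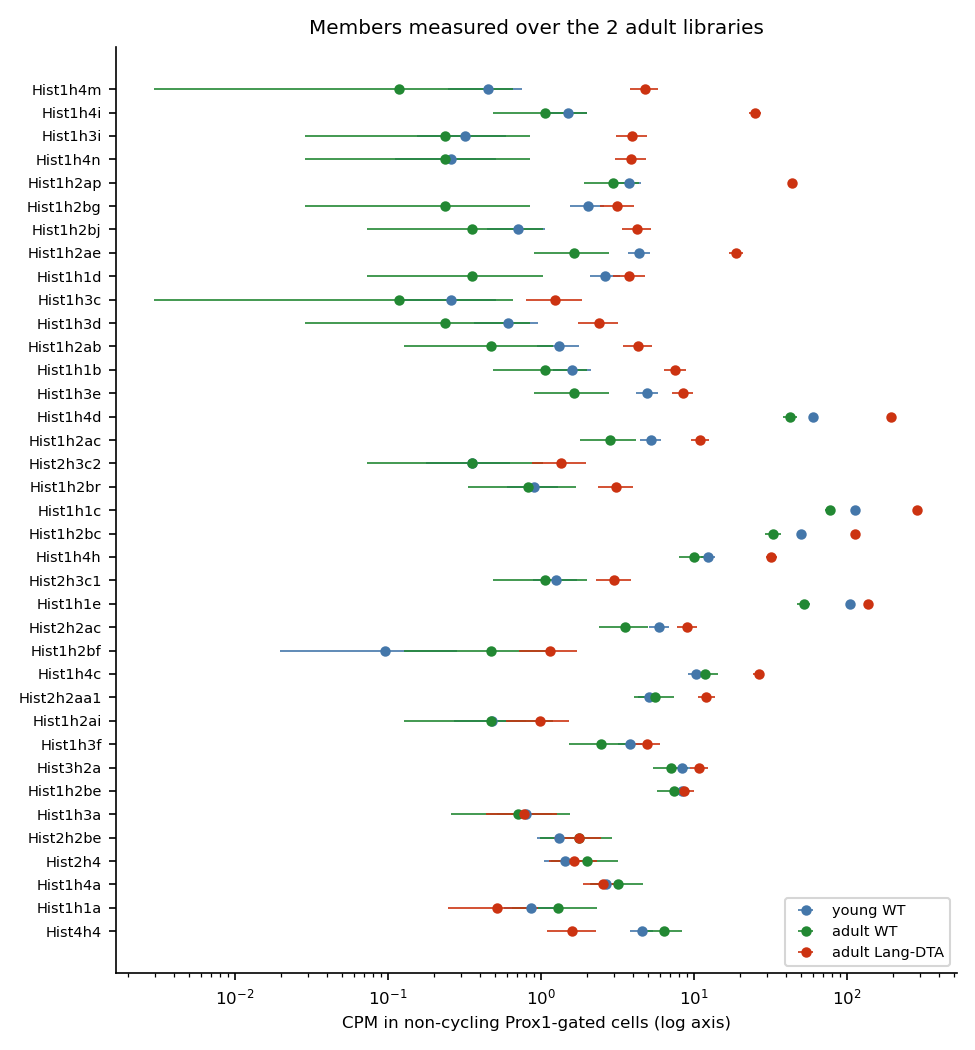
CPM (log scale) of the 37 clustered histone genes measured over the adult libraries, in non-cycling Prox1-gated cells. Young WT is blue, adult WT green and adult Lang-DTA red, with 95% counting intervals. The red points of Hist1h1c (287 CPM), Hist1h4d (194 CPM) and Hist1h4i (25.2 CPM) stand above both WT points, and that of Hist4h4 (1.61 CPM) below them.

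A minority of cells carried much of this RNA. Of 1975 non-cycling Prox1-gated cells of adult Lang-DTA, 367 (18.6%) had at least 10 UMIs of replication-type members and together held 59.98% of those UMIs. The same count was 44 of 3675 cells (1.2%) in young WT and 3 of 1471 (0.204%) in adult WT, at median depths of 8908, 7780 and 5025 UMIs per cell for adult Lang-DTA, young WT and adult WT. The part of depth in these shares was not tested.

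Other genes that differed between the libraries in these cells did not all have the members' order of 432, 288 and 1009 CPM. The S list stood at 274, 311 and 356 CPM and the M list at 23.5, 22.7 and 37.7 CPM in non-cycling Prox1-gated cells of young WT, adult WT and the adult Lang-DTA library, against 1985 and 3586 CPM in the cycling ones of adult Lang-DTA. Slbp, which encodes the stem-loop binding protein, stood at 50.7, 73.4 and 83.4 CPM. Cdkn1a, which encodes an inhibitor of the cell cycle, stood at 199, 337 and 867 CPM, and the lymphatic marker list at 11366, 15721 and 6671 CPM. These cells were also split by UMIs of the stress gene Gdf15, a division chosen after its values were seen. With 0, 1 to 2 and at least 3 UMIs, the members summed to 848, 1108 and 1156 CPM in cells of adult Lang-DTA. The sums were 290, 269 and 289 CPM in adult WT and 431, 439 and 432 CPM in young WT. Median depth of the adult Lang-DTA cells rose across this split too, at 7242.5, 8803.5 and 11124 UMIs. The part of these differences in the members' levels was not tested.

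The other gates showed a smaller difference between the genotypes. In non-cycling keratin-gated cells 1 of 32 measured members was at least 2-fold higher in adult Lang-DTA (3.91% of all genes; Hist1h3f, 1.40 against 0.612 CPM) and 0 were lower (0.963%), and the summed ratio was 1.22. In non-cycling Trdv4-gated cells 1 of 26 was higher (5.85%; Hist1h3a, 1.88 against 0.874 CPM) and 0 were lower (1.53%), with a summed ratio of 1.21. Hist1h1c stayed under 2-fold, at 31.7 against 16.8 CPM in Trdv4-gated cells (1.89, 1.55 to 2.31). Among cycling keratin-gated cells 2 of 54 were higher (1.16%; Hist1h4m and Hist1h3d) and 0 lower (2.34%), at a summed ratio of 1.39. Among cycling Trdv4-gated cells 0 of 33 were higher (5.05%) and 1 was lower (3.5%; Hist2h2bb, 14.2 against 28.9 CPM), at a summed ratio of 0.957.

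**Figure D4:**
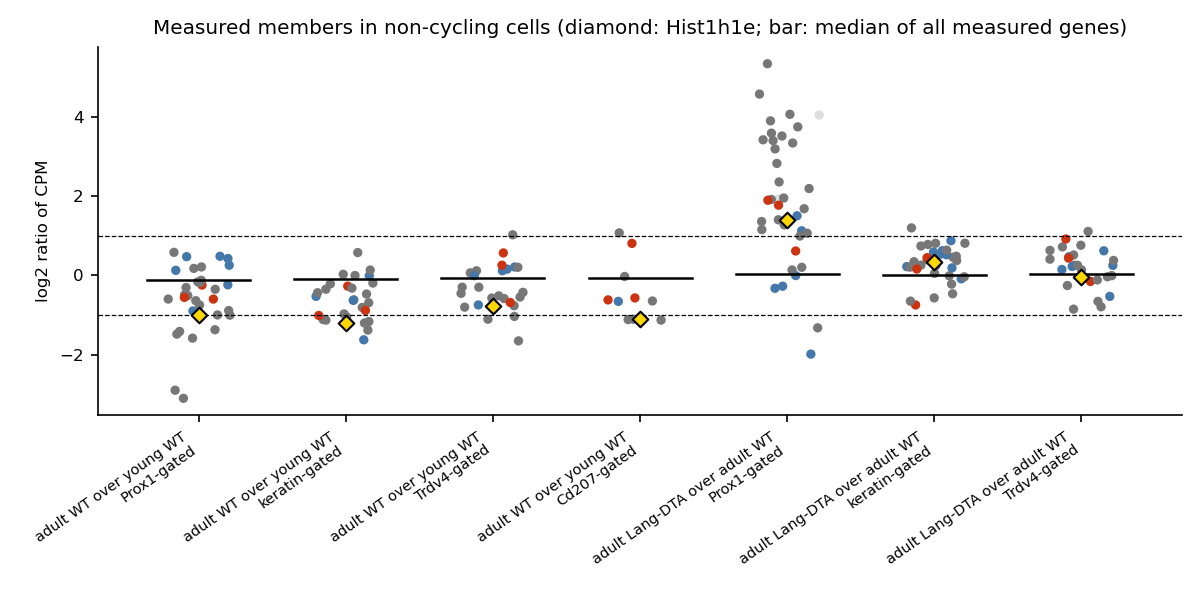
Log2 ratio of CPM between libraries for each measured clustered histone gene, by comparison and gate. Each point is a member, the diamond Hist1h1e, the bar the median over all genes and the dashed lines a 2-fold difference. Most points of non-cycling Prox1-gated cells in adult Lang-DTA over adult WT lie above the upper dashed line (28 of 37). A member could be measured through the library in which it was high.

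Genes that work with the clustered histones moved less. Of 11 histone genes outside the clusters, 6 were at least 2-fold higher in cycling than in non-cycling Prox1-gated cells of young WT (11.6% of all genes were), with Cenpa, the centromeric H3, at 28.2-fold, H2afx, the DNA damage variant, at 11.1-fold and H2afz, a replacement H2A, at 6.78-fold. Of 11 genes for histone mRNA control and processing, 4 were higher, with Slbp at 2.88-fold and Lsm11, of the U7 particle that cuts histone mRNA, at 2.15-fold. Of 12 histone chaperones, 4 were higher, with Asf1b at 51.0-fold and the assembly factor subunits Chaf1a and Chaf1b at 10.3-fold and 4.54-fold. The medians of the 3 lists were log2 1.01, 0.43 and 0.73, against 4.79 for the clustered members.

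In non-cycling Prox1-gated cells, 3 of the 11 histone genes outside the clusters were at least 2-fold higher in adult Lang-DTA than in adult WT, where 13.1% of all genes were. The replacement linker histone H1f0 stood at 203, 125 and 371 CPM in young WT, adult WT and the adult Lang-DTA library, H2afj at 65.6, 60.2 and 156 CPM, and H1fx was 7.26-fold higher in adult Lang-DTA than in adult WT. Of the processing genes 2 of 11 were higher (Lsm10, 2.44-fold, and Cpsf2, 2.26-fold), and of the chaperones 1 of 12 (Npm1, 2.60-fold), shares near that of all genes. In the keratin and Trdv4 gates none of the 3 lists had a member at least 2-fold higher in non-cycling cells of adult Lang-DTA. The shares of all genes there were 3.91% and 5.85%, so an empty count in lists this short is near them.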

How the data were processed

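The deposited matrices hold whole-number UMI counts per gene and cell, made by the authors with Cell Ranger 8.0.1, per the file headers, on build GRCm38, per the submitters' processing notes; the annotation release is not given in the sources used here. A cell was kept (12399, 12621 and 12941 cells) if 500 genes and 1000 UMIs or more were read and no more than 10% of its UMIs were mitochondrial. Cells passing several gates (153, 128 and 122) were left out. Doublets were scored by nearest neighbours among simulated pairs and left out only as an alternative. UMIs were summed per class, state and library and divided by all UMIs of those cells (CPM). Ratios of sums have exact conditional intervals; a count of 0 was set to 3 counts. A call means at least 2-fold with at least 20 UMIs. The scripts were checked on simulated counts. All linker H1 genes were named, with the 12 highest members per group, up to 5 members per comparison by the interval limit nearest 0 and the members next to the thresholds; others named in the text were chosen after their values were seen. Members, gates and lists were chosen with earlier results of these data known. The software was matplotlib 3.10.9, scikit-learn 1.9.0, pandas 2.3.3, scipy 1.17.1, numpy 2.4.6 and Python 3.11.15. Transcript features came from GENCODE M21 and promoter windows from RefSeq.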

Additional observations from a re-analysis of the deposited data

Results flagged for a closer look

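Cycling cells outside the 4 gates also held clustered histone RNA. Their replication-type members summed to 2029 CPM in young WT (256 cells), 1154 CPM in adult WT (154 cells) and 2925 CPM in adult Lang-DTA (177 cells). No comparison of the report used these cells. The level was above that of cycling Cd207-gated cells in young WT (1677 CPM) and of cycling Trdv4-gated cells in adult Lang-DTA (2481 CPM) and below that of the other gated cycling units of the same library.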

How the results depend on the processing

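For 13 counts of members, 199 alternatives were computed: 159 stayed within 1.5 times the reported count and 40 did not. A count has no sign, so a reversal could not be scored. The replication-type group held 33 to 47 members. The group detected in non-cycling cells had 6 members with a split ratio of 8 and 8 when the division used adult Lang-DTA. The age count (at least 2-fold either way) in non-cycling Prox1-gated cells was 14 at 1.5-fold, 2 at 3-fold and 11 in male-called cells. In keratin-gated cells it was 15 at 1.5-fold, 1 at 3-fold, 4 with stricter gates, 1 in female-called cells and 4 with 50 UMIs. In Trdv4-gated cells it was 9 at 1.5-fold, 1 at 3-fold, 2 in cells of at least 5000 UMIs, 1 in male-called and 0 in female-called cells and 1 with 50 UMIs. In Cd207-gated cells it was 8 at 1.5-fold, 0 at 3-fold, 1 with cells of several gates kept, 2 without doublets, 1 in male-called and 1 in female-called cells and 1 with 50 UMIs. The genotype count was 22 to 32 in non-cycling Prox1-gated cells. In keratin-gated cells it was 11 at 1.5-fold, 0 at 3-fold, 2 with several gates, 0 by the mean of single-cell CPM, 2 with stricter gates, 0 in male-called and 2 in female-called cells, 4 with 10 UMIs and 0 with 50. In Trdv4-gated cells it was 9 at 1.5-fold, 0 at 3-fold, 0 in cells of at least 5000 UMIs, 0 with stricter gates, 2 in male-called cells and 0 with 50 UMIs. The cycling count in Cd207-gated cells of young WT was 19 in female-called cells and 20 with 50 UMIs. Fewer cells or a stricter limit leave fewer members to count; otherwise the cause was not tested. Of 689 alternatives for 65 ratios of single members, 679 kept their sign, 67 left the counting interval, and of the 10 that changed sign only 1 belonged to a member past 2-fold, Hist1h1b with age in Trdv4-gated cells, at a log2 ratio of -0.50 by the mean of single-cell CPM. No paired analysis was possible because each condition had 1 library, which also left no replicate to leave out.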

Other observations

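The testis genes Hist1h2aa (H2A) and Hist1h2ba (H2B), which start 305 bases apart in opposite directions, were read in adult Lang-DTA only. Hist1h2aa had 111 UMIs there in 12 cells, at most 43 in a cell, and 76 of them came from 6 cycling Prox1-gated cells. Hist1h2ba had 7 UMIs in 4 cells. Both were at 0 UMIs in the kept cells of young WT and adult WT. The cells with Hist1h2aa were called male in 6 cases and female in 6.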
